A study of Rattus norvegicus with 6 samples.

Results

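Proteoglycans are proteins that carry long sulfated sugar chains. The 10 genes described here encode the 4 syndecans (*Sdc1*, *Sdc2*, *Sdc3* and *Sdc4*), versican (*Vcan*), the hyaluronan receptor CD44 (*Cd44*), serglycin (*Srgn*), perlecan (*Hspg2*), biglycan (*Bgn*) and decorin (*Dcn*). They were matched by gene symbol, through probe sets that name exactly 1 gene, out of 14217 genes named on the array. They were chosen by family, with their measured log2 differences between ischemia and control known, so those differences, and the calls that the fit across all genes gave them, are given below as a description and support nothing.

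The RNA on each array came from the CD11b+CD163+ cells that flow cytometry separated out of the right hemisphere of 1 adult male Sprague-Dawley rat. The ischemic rats, numbered 64, 65 and 66, were killed 16 h into reperfusion, after the middle cerebral artery had been occluded for 1 h. The controls were rats 63, 68 and 69. The labels call the cells CD163+ perivascular and meningeal macrophages, here border-associated macrophages (BAMs). The gate takes any cell that carries both surface proteins, and the labels do not separate perivascular from meningeal cells. Rats were the replicates, with n = 3 in each group throughout.

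The sugar chains of proteoglycans are chiefly heparan sulfate, chondroitin sulfate or dermatan sulfate, and they hold chemokines, growth factors and proteases at cell surfaces and in the matrix. Syndecans span the cell membrane and can be shed by metalloproteinases, versican binds the unsulfated chain hyaluronan in the matrix, and CD44 binds hyaluronan on leukocytes. In the brain, perlecan belongs to the basement membrane of vessels, where perivascular macrophages lie, and decorin and biglycan are products of meningeal and other fibroblasts.

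Values are log2 values after RMA (robust multi-array average), and they are not compared between genes, because probes differ in brightness. A value of 7.24 was taken as background, the 90th percentile of 32 genes of other tissues. Of 9928 genes that passed a filter on low signal, 1664 were higher and 595 lower after ischemia at an adjusted p under 0.01 by limma, here said to be called. This split depended on scaling: it was 774 higher and 822 lower when arrays were centred on ribosomal protein genes, which moved the median difference of all tested genes to -0.085 (it was 0.10 as deposited), and 1391 higher and 929 lower after repeated quantile normalization. The array of control rat 63 stood apart: the median of 47 ribosomal protein genes was 13.61 to 13.64 in ischemia, 13.11 in control rat 63 and 13.54 to 13.63 in the other control rats. None of the 18 BAM markers on the array was below background in all rats. Of the 18, *Itgam* was called higher (2.24, adjusted p = 0.000104) and *Colec12* lower (-1.95, adjusted p = 0.00143), and the median log2 difference was -0.53. This share called, 11.1%, was below the 22.8% of all tested genes. With repeated quantile normalization 4 of the 18 were called lower and with array weights 7. The summed log2 level of the 18 was 221.21 to 232.17 in ischemia and 224.54 to 239.48 in control. *Cd163* lay at 14.11, 14.02 and 13.38 in ischemia and at 12.63, 13.86 and 13.41 in control rats 63, 68 and 69.

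Of the 10 genes, 8 passed the filter, *Sdc1* and *Vcan* through their ischemic arrays alone. Called higher after ischemia were *Sdc1*, *Sdc3*, *Vcan*, *Cd44* and *Srgn*, which makes 5 of 8, while 16.8% of all tested genes were called higher. For 4 of the 5 the log2 difference also exceeded 2, as it did for 1.63% of all tested genes. The groups did not overlap for the same 5 genes, as for 55.6% of all tested genes in either direction and 35.7% with ischemia above control. *Sdc4*, *Dcn* and *Hspg2* were not called, and *Sdc2* and *Bgn* were too dim to be tested. None was called lower, while 5.99% of all tested genes were. The median difference of the 8 was 1.94, beside 0.10 for all tested genes. The count of 5 of 8 and this median rest on the filter, which kept genes high in ischemia alone and dropped dim ones. With no filter the same 5 of the 10 were called higher, as were 1469 of 14217 genes. The arrays also differed in a sign of RNA quality: actin probe sets at the 3′ end exceeded those at the 5′ end by 0.168 to 0.237 in ischemia and 0.0582 to 0.073 in control, and those of GAPDH by 0.75 to 0.797 in ischemia and 0.52 to 0.651 in control, on the log2 scale. The part of this gap in the 5 genes was not tested. In cells sorted in bulk, more cells of a type that carries a transcript and more transcript in each cell cannot be told apart.

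**Figure D1:**
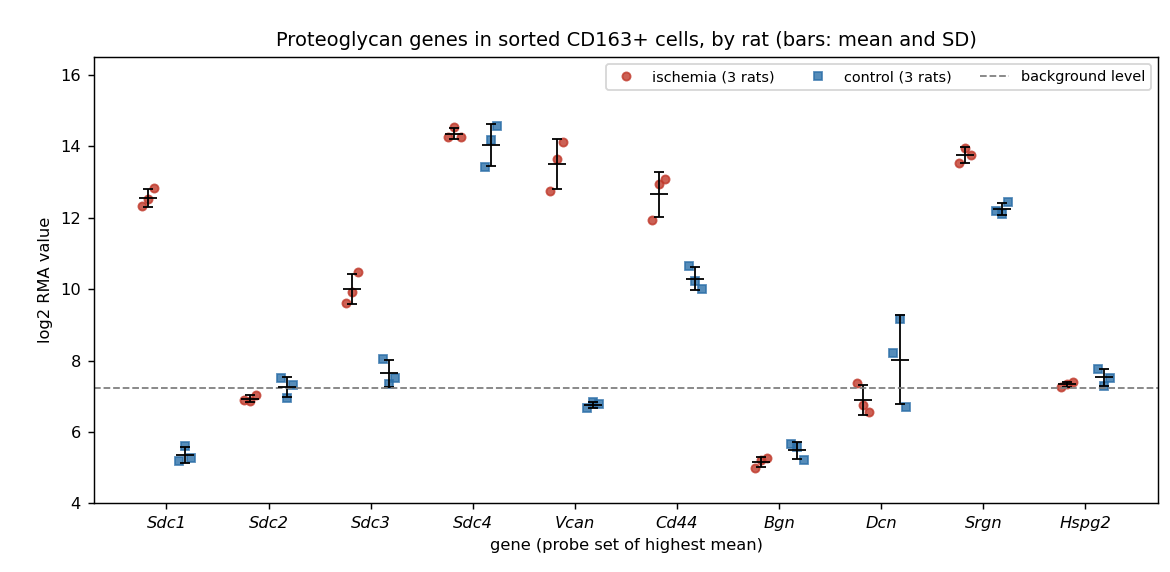
Log2 RMA value (vertical axis) of each proteoglycan gene in each rat, with ischemia as red circles left of control as blue squares. Black bars give the mean and SD of 3 rats, and a dashed line is drawn at background (7.24). *Sdc1* and *Vcan* lie below that line in all 3 controls and above 12 in all 3 ischemic rats, while the groups of *Sdc2*, *Sdc4*, *Bgn*, *Dcn* and *Hspg2* overlap.

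*Sdc1* encodes syndecan-1, a heparan sulfate proteoglycan best known from epithelia and plasma cells. It lay at 12.33, 12.53 and 12.82 in ischemic rats 64, 65 and 66, against 5.19, 5.60 and 5.26 in control rats 63, 68 and 69. All controls were thus below background and all ischemic rats far above it. The means were 12.56 ± 0.25 in ischemia and 5.35 ± 0.22 in control (SD). As the controls only give an upper bound, *Sdc1* was at least 39.95-fold higher in ischemia. The other probe set of the gene read 11.08, 11.44 and 11.66 in ischemia and 6.19, 6.52 and 6.17 in control. Of 8 plasma and B cell markers on the array, 5 were never above background, among them *Jchain*, *Mzb1* and *Tnfrsf17*. Of the 3 tested none was called, although *Prdm1*, a regulator of plasma cells and other leukocytes, lay at 8.70, 9.41 and 9.63 in ischemia and 7.45, 7.44 and 8.84 in control (log2 difference 1.34, adjusted p = 0.0286) and was called higher without control rat 69. The summed log2 level of the 8 was 49.33 to 50.31 in ischemia and 49.14 to 50.28 in control.

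*Sdc3*, whose product syndecan-3 was first studied in the nervous system, lay at 9.62, 9.92 and 10.47 in ischemic rats 64, 65 and 66, against 8.05, 7.35 and 7.52 in control rats 63, 68 and 69. Every ischemic rat was above every control. The means were 10.004 ± 0.43 in ischemia and 7.64 ± 0.37 in control, a log2 difference of 2.36 (SE 0.26, 95% interval 1.77 to 2.96), or 5.15-fold. Another probe set gave a smaller log2 difference of 1.33, and the third, below background on all arrays, gave 0.49. Averaged over the 3 probe sets the log2 difference was 1.40, and *Sdc3* was still called higher.

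*Sdc4* encodes syndecan-4, found at focal adhesions of many cell types. It was bright on every array, at 14.27, 14.53 and 14.27 in ischemic rats 64, 65 and 66, against 13.41, 14.17 and 14.57 in control rats 63, 68 and 69. The ischemic rats lay inside the range of the controls. The log2 difference was 0.31 (SE 0.27), with a 95% interval of -0.32 to 0.93. Control rat 63 was the lowest, and the brightest probe set of an array, control probe sets aside, reached 14.88 to 14.95 in ischemia, 13.85 in control rat 63 and 14.94 to 14.96 in the other controls. Without rat 63 the log2 difference of *Sdc4* was -0.012.

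*Sdc2*, the gene of syndecan-2, a proteoglycan of fibroblasts and endothelium, lay at 6.89, 6.86 and 7.04 in ischemic rats 64, 65 and 66, and at 7.52, 6.96 and 7.30 in control rats 63, 68 and 69. Only control rats 63 and 69 were above background, and the groups overlapped. Of the 4 syndecan genes, 2 were higher after ischemia, *Sdc4* was bright in every rat with overlapping groups, and *Sdc2* lay near background.

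Windows around the transcription start of *Sdc1*, *Sdc4* and *Vcan* are shown because the first and the last were below background in every control and far above it in every ischemic rat, and the other is the syndecan gene that was bright in every rat. They run 5′ to 3′ on the gene's strand, from 250 bases before the start to 50 after it, from RefSeq on build GRCr8, where *Sdc1* is at chr6:37281791-37282090 on the plus strand, *Sdc4* at chr3:173592874-173593173 on the minus strand and *Vcan* at chr2:22595906-22596205 on the minus strand. Capitals mark matches on either strand to GGGCGG (GC box), TATAA (TATA motif), ACGTG and GCGTG (core of the HIF site) and TGANTCA (AP-1 site). Matches of GGGCGG can overlap each other, and TATAA and its complement overlap in *Sdc1*.
Sdc1: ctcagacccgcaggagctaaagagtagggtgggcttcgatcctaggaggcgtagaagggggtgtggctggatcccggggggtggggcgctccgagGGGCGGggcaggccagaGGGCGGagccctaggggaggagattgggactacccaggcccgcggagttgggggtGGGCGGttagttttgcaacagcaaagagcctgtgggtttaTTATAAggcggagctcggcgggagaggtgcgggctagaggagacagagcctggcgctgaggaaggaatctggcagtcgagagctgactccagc
Sdc4: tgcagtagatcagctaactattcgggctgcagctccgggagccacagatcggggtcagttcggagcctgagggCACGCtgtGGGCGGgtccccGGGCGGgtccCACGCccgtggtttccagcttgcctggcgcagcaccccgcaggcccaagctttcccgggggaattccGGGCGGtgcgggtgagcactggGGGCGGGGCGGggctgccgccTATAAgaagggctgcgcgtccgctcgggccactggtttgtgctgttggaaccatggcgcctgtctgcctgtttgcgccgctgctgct
Vcan: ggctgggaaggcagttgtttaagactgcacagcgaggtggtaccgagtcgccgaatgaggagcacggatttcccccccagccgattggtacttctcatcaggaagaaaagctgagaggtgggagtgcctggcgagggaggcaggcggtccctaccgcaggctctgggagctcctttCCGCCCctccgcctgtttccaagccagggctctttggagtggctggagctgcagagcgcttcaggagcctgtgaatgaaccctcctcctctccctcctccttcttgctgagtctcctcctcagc

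RefSeq windows were found for 7 of the 10 genes, as 8 windows. *Sdc2*, *Bgn* and *Dcn* are named only. The *Sdc1* window held 3 matches of GGGCGG and 2 of TATAA, and that of *Sdc4* held 5 of GGGCGG, 2 of GCGTG and 1 of TATAA. The *Vcan* window shown held 1 of GGGCGG. *Vcan* had a second, overlapping window, not shown, with 1 of GGGCGG and 1 of TATAA. Among all 33465 rat promoter windows of this length, GGGCGG was present in 33.1%, TATAA in 26.2%, GCGTG in 29.7%, ACGTG in 19.3% and TGANTCA in 7.33%. No window of the 7 genes held TGANTCA, and that of *Srgn* was the only one with ACGTG. The share of G and C was 64.67% for *Sdc1*, 68.67% for *Sdc4*, 61% for the *Vcan* window shown, 79.33% for *Sdc3* and 48% for *Srgn*, beside a median of 51.67% over all windows. These matches describe letters and show no binding.

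*Vcan* encodes versican, a large chondroitin sulfate proteoglycan that binds hyaluronan. It lay at 12.74, 13.65 and 14.11 in ischemic rats 64, 65 and 66, against 6.67, 6.83 and 6.78 in control rats 63, 68 and 69. The controls spanned 0.16 on the log2 scale and were all below background, whereas the ischemic rats spanned 1.37. The means were 13.50 ± 0.70 in ischemia and 6.76 ± 0.082 in control, and *Vcan* was at least 76.46-fold higher in ischemia. All 5 probe sets of the gene were below background in every control and above it in every ischemic rat. The dimmest in control read 11.84, 12.39 and 12.82 in ischemia and 4.11, 4.48 and 4.05 in control.

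*Cd44*, the gene of the main hyaluronan receptor of leukocytes, some forms of which carry sulfated chains themselves, lay at 11.94, 12.94 and 13.09 in ischemic rats 64, 65 and 66, against 10.65, 10.24 and 10.005 in control rats 63, 68 and 69. It was well above background in every control, unlike *Sdc1* and *Vcan*. The means were 12.66 ± 0.63 in ischemia and 10.30 ± 0.33 in control, a log2 difference of 2.36 (SE 0.31, 95% interval 1.65 to 3.07), or 5.13-fold. The other probe set gave 2.55.

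*Srgn* encodes serglycin, the proteoglycan of storage granules in white blood cells. It lay at 13.54, 13.97 and 13.76 in ischemic rats 64, 65 and 66, against 12.19, 12.10 and 12.43 in control rats 63, 68 and 69. Every rat was bright and the groups were apart. The means were 13.76 ± 0.21 in ischemia and 12.24 ± 0.17 in control, a log2 difference of 1.52 (SE 0.16, 95% interval 1.15 to 1.88), or 2.86-fold, the smallest of the 5 called.

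Some markers of other blood cells were also higher after ischemia. Of 14 monocyte markers tested, 7 were called higher, with *Fn1* (5.96), *Ly6c* (4.68) and *S100a4* (2.10) the furthest in log2 difference. *Nr4a1* was called lower (-0.93). Called were 57.1%, beside 22.8% of all tested genes. Only 2 of these markers were higher with ribosomal centring, and 3 without ischemic rat 65, ischemic rat 66 or control rat 68. For all 15 on the array the summed log2 level was 160.04 to 168.44 in ischemia and 140.70 to 150.15 in control. *Ccr2*, the chemokine receptor of monocytes, was at 11.84, 13.05 and 12.58 in ischemia and 12.50, 11.996 and 11.68 in control and was not called. Of 7 granulocyte markers tested, *S100a8*, *Lcn2* and *Fcnb* were called higher (42.9% called, beside 22.8% of all tested genes). The call of *Fcnb* ended without ischemic rat 65 or 66 or any 1 control, with robust moderation and with no filter. Not called were *S100a9* (2.19), *Csf3r* (0.93), *Cebpe* (0.20) and the receptor gene *Cxcr2* (-0.50). *S100a9* was called higher without ischemic rat 64. Both *S100a9* and *Csf3r* were called higher with array weights and at an adjusted p under 0.05, which made 5 of the 7 in each. The summed log2 level of the 13 on the array was 93.59 to 101.75 in ischemia and 84.83 to 85.78 in control. The granule and receptor genes *Camp*, *Mmp8*, *Cxcr1* and *Padi4* were never above background. Of 11 mast cell markers, 7 were never above background, 1 passed the filter, and none was called, with summed log2 levels of 63.15 to 65.62 in ischemia and 64.12 to 72.32 in control. The part of these cells in the higher values of *Vcan*, *Cd44*, *Srgn*, *Sdc1* and *Sdc3* was not tested.

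**Figure D2:**
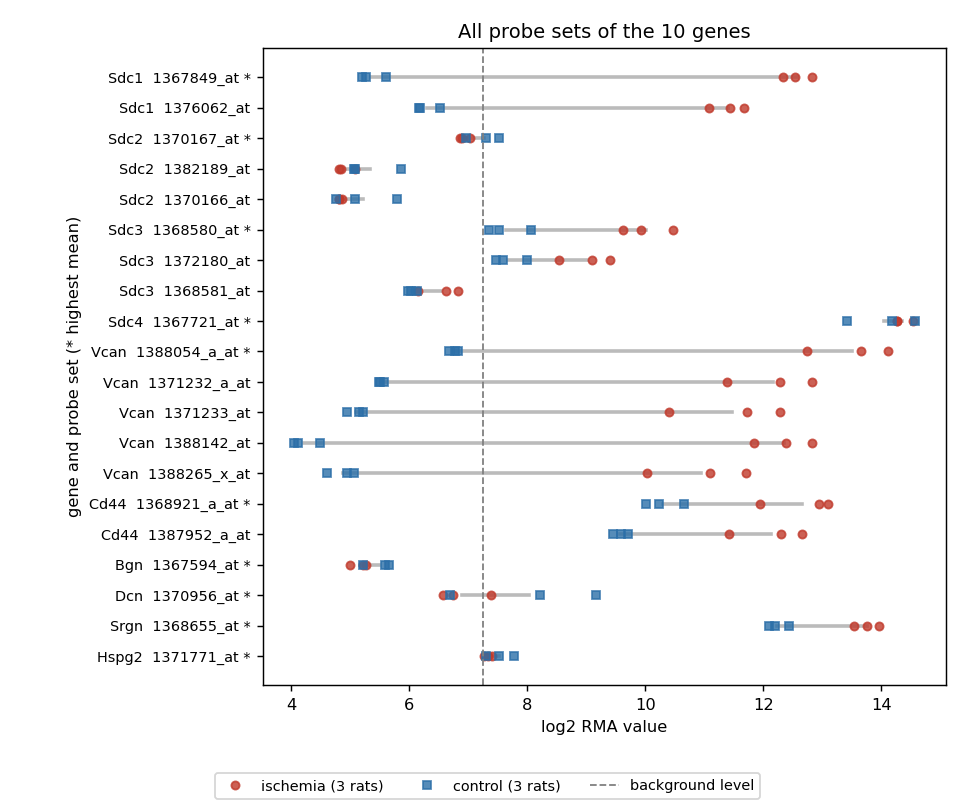
Log2 RMA value (horizontal axis) of all 20 probe sets of the 10 genes, 1 per line, with red circles for 3 ischemic rats, blue squares for 3 controls and a grey line between the group means. Stars mark the probe set of highest mean, used in the text, and a dashed line is drawn at background (7.24). All 5 probe sets of *Vcan* and both of *Sdc1* and *Cd44* have every ischemic rat to the right of every control.

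*Hspg2*, *Dcn* and *Bgn* encode proteoglycans of vessel walls and fibroblasts. *Hspg2* and *Dcn* were not called, and *Bgn* was too dim to be tested. *Agrn*, the gene of agrin, from the list of other core proteins below, was above background in every rat. It was called lower after ischemia (-1.14, adjusted p = 0.00394 by limma). That call ended without ischemic rat 65, ischemic rat 66 or control rat 68, when *Tgfbr3* was the only gene of that list called lower. *Col18a1*, also from that list, was called higher (1.09, adjusted p = 0.000971), a call that ended with ribosomal centring. *Hspg2*, the gene of the basement membrane proteoglycan perlecan, lay at 7.27, 7.33 and 7.40 in ischemic rats 64, 65 and 66, against 7.77, 7.30 and 7.52 in control rats 63, 68 and 69. All 6 values were just above background and the groups overlapped. The log2 difference was -0.19 (SE 0.15, 95% interval -0.54 to 0.15). Control rat 63 was the highest, and it also had the highest summed log2 level of 15 endothelial markers, which was 122.93 to 126.53 in ischemia and 142.37, 117.35 and 122.07 in control rats 63, 68 and 69. The part of endothelial RNA in *Hspg2* was not tested.

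*Dcn*, which encodes the small collagen-binding proteoglycan decorin, lay at 7.38, 6.74 and 6.56 in ischemic rats 64, 65 and 66, against 8.22, 9.17 and 6.69 in control rats 63, 68 and 69. Control rats 63 and 68 were above every ischemic rat and control rat 69 was below 2 of them. The means were 6.90 ± 0.43 in ischemia and 8.02 ± 1.25 in control, a log2 difference of -1.13 (SE 0.55, 95% interval -2.39 to 0.13). *Dcn* was not called, but without control rat 69 the difference was -1.79 and the gene was called lower, and without control rat 68 it was -0.56. Of 17 fibroblast and meningeal markers, the summed log2 level was 130.72 to 132.30 in ischemia and 137.48, 136.42 and 127.97 in control rats 63, 68 and 69, so that rat 69 was the lowest control in both. Of the 13 tested, *Pdpn* (3.14) and *Fbln1* (3.24) were called higher and the collagen gene *Col3a1* (-1.30, adjusted p = 0.00784) lower. The call of *Col3a1* ended when any 1 rat other than control rat 69 was left out. The share called, 23.1%, was near the 22.8% of all tested genes. Without control rat 69, 4 of the 13 were called lower, and without ischemic rat 65, ischemic rat 66, control rat 63 or control rat 68 none was. The part of fibroblast RNA in *Dcn* was not tested.

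*Bgn*, the gene of biglycan, the near relative of decorin, was below background on every array, at 4.995, 5.21 and 5.26 in ischemic rats 64, 65 and 66 and 5.66, 5.59 and 5.21 in control rats 63, 68 and 69. No difference in it could be read from this array.

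The 3 ischemic rats were not alike in size of difference. Rat 64 had the lowest value of the 3 for all 5 called genes, as it did for 76.6% of the 1664 genes called higher on the array. The median of the 5 genes above the mean of the controls was 1.98, 2.65 and 2.83 in rats 64, 65 and 66, and that of all genes called higher was 0.87, 1.03 and 1.08. *Vcan* differed by 1.37 between rats 66 and 64, *Cd44* by 1.15, *Sdc3* by 0.85 and *Sdc1* by 0.49. *Srgn* alone had its highest value in rat 65. The 3 controls stayed within 0.41 of their mean for each of the 5 genes.

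**Figure D3:**
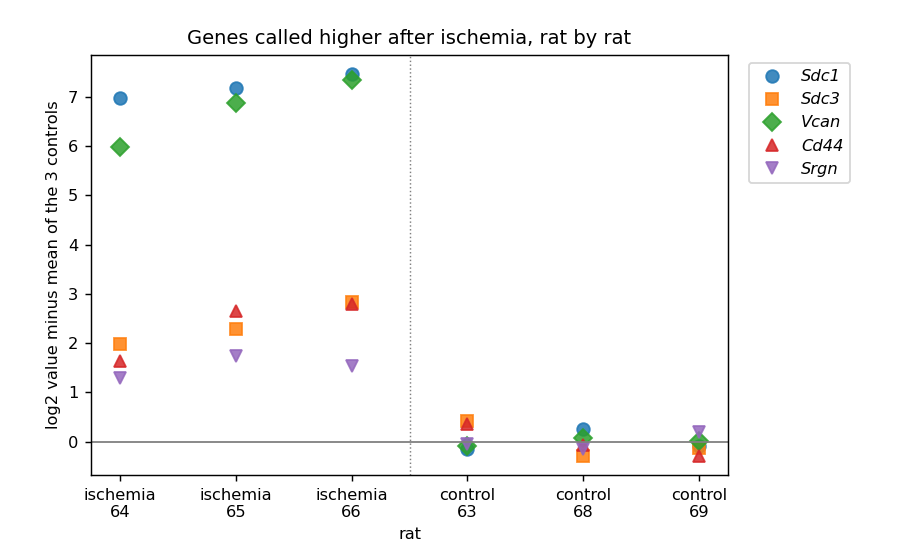
Log2 value minus the mean of the 3 controls (vertical axis) for the genes called higher, in each rat, with ischemia left of control. Rat 64 is the lowest ischemic rat for all 5 genes, and *Sdc1* and *Vcan*, whose controls were below background, lie above 5 in every ischemic rat.

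Among all tested genes, those most like *Sdc1* and *Vcan* were sought by the mean absolute difference over the 6 arrays after subtraction of each gene's control mean. *Enpp3*, an ectonucleotidase known from basophils, and *Tgm2*, the crosslinking enzyme transglutaminase 2, were among the 3 nearest to both. *Enpp3* differed by a mean of 0.87 from *Sdc1* and 0.61 from *Vcan*, and *Tgm2* by 0.93 and 0.67. Nearest to *Cd44* were *Uck2*, a kinase of pyrimidine salvage, at 0.11, *Emilin2*, an elastic fibre protein, at 0.12, and *Dgat2*, an enzyme of triglyceride synthesis, at 0.14. These distances are on the log2 scale and describe 6 arrays, and those of *Sdc1* and *Vcan* rest on control values below background.

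The genes around these proteoglycans were read from 8 lists. They name 180 further genes, of which 148 were on the array and 102 were tested. Of the 102, 26 rose and 6 fell after ischemia (31.4%, beside 22.8% of all tested genes), 70 were not called, and the median log2 difference was 0.11, beside 0.10 for all tested genes. The split became 11 risen and 11 fallen when arrays were centred on ribosomal protein genes. Leaving out 1 rat gave as few as 11 risen, without ischemic rat 66, with 12 without ischemic rat 65, 13 without control rat 69, 14 without 68 and 17 without 63. It gave 1 fallen without ischemic rat 65, ischemic rat 66 or control rat 68, and 2 without control rat 69. Adjusted p-values in the following paragraphs are from limma over all 9928 tested genes.

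Other core proteins moved in both directions. Of 33 on the array 14 were tested, and 4 rose and 3 fell (50% called, beside 22.8% of all tested genes). Of the 33, 17 were never above background. *Thbd*, the gene of the anticoagulant receptor thrombomodulin, lay at 10.48, 10.15 and 12.16 in ischemia, against 8.46, 7.27 and 6.59 in control, and rose by 3.49 (SE 0.59, adjusted p = 0.00315). Its other probe sets gave 3.58, called higher, and 1.87, not called. *Cspg4*, the gene of NG2, a marker of pericytes and glial precursors, rose by 1.34 (SE 0.24, adjusted p = 0.00381), and it is itself 1 of 12 mural cell markers. Of these, 5 were never above background and 5 were tested, among which *Pdgfrb* (-0.04), *Myh11* (-0.87), *Tagln* (-0.24) and *Vtn* (-0.45) were not called. Their summed log2 level was 80.35 to 81.83 in ischemia and 79.15 to 88.19 in control. *Tgfbr3*, which encodes betaglycan, a co-receptor of TGF-beta, was at 8.37, 8.18 and 8.10 in ischemia, against 9.13, 9.90 and 9.77 in control, and fell by 1.38 (SE 0.21, adjusted p = 0.00197). *Cd74*, the invariant chain of MHC class II, differed by 0.14 (adjusted p = 0.695), and *Nrp1*, a co-receptor of semaphorins and VEGF, by -1.23 (adjusted p = 0.0135). The call of *Thbd* ended without control rat 68 (adjusted p = 0.0158) or 69 (0.0112), and that of *Cspg4* without ischemic rat 66 (0.0147) or control rat 63 (0.0129) or 68 (0.0146). *Nrp1* was called lower by its other probe set, at -1.44, and under 6 alternatives: without ischemic rat 64 (0.00107), with array weights (0.0012), ribosomal centring (0.00682) or repeated quantile normalization (0.00948), with the mean of its probe sets (0.00664) and with the 60th percentile filter (0.00852).

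Among the genes that supply precursors and build the sugar linker, 4 of 18 tested rose and none fell, with a median log2 difference of 0.30. This share called, 22.2%, was near the 22.8% of all tested genes. *Gfpt2*, which opens the hexosamine pathway, rose by 2.27 (SE 0.46, adjusted p = 0.0064), *Papss2*, which makes the sulfate donor, rose by at least 2.15-fold (adjusted p = 0.00238), and *Gnpnat1*, a later hexosamine enzyme, rose by 0.86 (SE 0.14, adjusted p = 0.00244). *Papss2* was below background in all controls, and its other probe set was too dim to test. *Fam20b*, the kinase of the linker xylose, differed by 0.24 (adjusted p = 0.177) and *Ugp2*, which makes UDP-glucose, by 0.38 (adjusted p = 0.0857). The call of *Gfpt2* ended without any 1 of ischemic rats 65 and 66 and the 3 controls (adjusted p up to 0.0288), that of *Papss2* without control rat 68 (0.0109) and that of *Gnpnat1* without ischemic rat 66 (0.0116).

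Heparan sulfate synthesis and editing had 5 of 11 tested genes risen and none fallen, with a median of 0.24. Called were 45.5%, beside 22.8% of all tested genes. *Hs2st1*, the 2-O-sulfotransferase, lay at 9.58, 10.06 and 10.02 in ischemia, against 8.58, 9.03 and 8.76 in control, and rose by 1.09 (SE 0.18, adjusted p = 0.00286). *Glce*, the glucuronyl epimerase, rose by 0.91 (adjusted p = 0.00427) and *Extl3*, which starts the chain, by 0.86 (adjusted p = 0.0064). Of the enzymes that trim finished chains, *Sulf2*, a sulfatase outside the cell, differed by 0.061 (adjusted p = 0.756) and *Hpse*, heparanase, by -0.60 (adjusted p = 0.0609). The call of *Hs2st1* ended without ischemic rat 65 or 66 or control rat 63 or 69 (adjusted p up to 0.0147). That of *Glce* ended without ischemic rat 65 or 66 or control rat 68 or 69 (up to 0.0222). That of *Extl3* ended when any 1 rat other than ischemic rat 64 was left out (up to 0.0241). *Hpse* was called lower without control rat 63 (0.00742), with ribosomal centring (0.00814) and with array weights (0.00464). With ribosomal centring 1 gene of the list rose and 1 fell, with *Glce* at an adjusted p of 0.049 and *Extl3* at 0.0527, and without ischemic rat 65 or 66 none rose.

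For chondroitin and dermatan sulfate synthesis, 2 of 8 tested genes rose and none fell, with a median of -0.04. This share called, 25%, was near the 22.8% of all tested genes. Both risen genes encode parts of the enzyme that extends chondroitin chains. *Chsy1* lay at 11.97, 12.04 and 11.76 in ischemia, against 10.39, 10.17 and 10.35 in control, and rose by 1.62 (SE 0.14, adjusted p = 0.000283). *Chpf* rose by 0.98 (SE 0.16, adjusted p = 0.00242), a call that ended without ischemic rat 65 or 66 or control rat 68 or 69 (adjusted p up to 0.0133). *Chst12*, a 4-O-sulfotransferase, differed by -0.055 (adjusted p = 0.896), and *Csgalnact2*, which starts the chain, by -0.39 (adjusted p = 0.0929).

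Hyaluronan genes had 3 of 12 tested risen and none fallen, with a median of -0.18. This share called, 25%, was near the 22.8% of all tested genes. *C1qbp*, a mostly mitochondrial protein that also binds hyaluronan, was at 12.58, 12.79 and 12.81 in ischemia, against 11.49, 11.57 and 11.52 in control, and rose by 1.20 (SE 0.13, adjusted p = 0.000536). *Hyal2*, a hyaluronidase anchored at the cell surface, rose by 1.18 (SE 0.18, adjusted p = 0.00188), and *Habp4*, an intracellular hyaluronan-binding protein, by 0.71 (SE 0.13, adjusted p = 0.00365). The BAM markers *Lyve1*, a hyaluronan receptor, and *Stab1*, stabilin-1, were bright in every rat. *Lyve1* differed by -0.0091 (adjusted p = 0.984), beside the 2.36 of *Cd44*, and *Stab1* by -0.96 (adjusted p = 0.0702). *Stab1* was called lower with repeated quantile normalization (-1.22, adjusted p = 0.00906) and with array weights (-1.31, adjusted p = 0.0039). The call of *Hyal2* ended without ischemic rat 65 (adjusted p = 0.01025), and that of *Habp4* without ischemic rat 65 or 66 or control rat 63 or 69 (up to 0.0222).

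Lysosomal breakdown of the chains was the list with calls in the lower direction only. All 11 genes on the array were tested, 2 fell and none rose, and the median was -0.50. Called were 18.2%, beside 22.8% of all tested genes. *Hexa*, the alpha subunit of hexosaminidase, lay at 12.07, 11.41 and 11.62 in ischemia, against 12.49, 13.45 and 13.04 in control, and fell by 1.29 (SE 0.26, adjusted p = 0.00638). *Idua*, alpha-iduronidase, fell by 1.03 (SE 0.18, adjusted p = 0.00348). *Ids*, iduronate sulfatase, differed by -0.38 (adjusted p = 0.0398) and *Gusb*, beta-glucuronidase, by -0.50 (adjusted p = 0.033). The list had 4 fallen with ribosomal centring, 5 with repeated quantile normalization and 6 with array weights. Leaving out ischemic rat 65 or 66 or control rat 68 or 69 ended the calls of *Hexa* (adjusted p up to 0.0258) and *Idua* (up to 0.0178).

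Of the proteases that cleave proteoglycans, 3 of 9 tested rose and none fell, and all 3 were matrix metalloproteinases. Called were 33.3%, beside 22.8% of all tested genes. *Mmp14*, which is anchored in the membrane and can shed syndecan-1 and CD44, lay at 11.73, 12.49 and 12.97 in ischemia, against 7.66, 7.62 and 7.55 in control, and rose by 4.79 (SE 0.28, adjusted p = 7.74e-05). Its other probe set gave 2.36. *Mmp7*, matrilysin, which sheds syndecan-1 in epithelia, lay at 8.61, 10.74 and 10.51 in ischemia, against 5.29, 5.25 and 5.28 in control, and rose by at least 6.55-fold over background (adjusted p = 0.000543). *Mmp9*, gelatinase B, rose by at least 3.17-fold (adjusted p = 0.00474), a call that ended without ischemic rat 66 or any 1 control (adjusted p up to 0.0231). The sheddases *Adam17* and *Adam10* differed by -0.0032 (adjusted p = 0.989) and 0.45 (adjusted p = 0.0426), and the other probe set of *Adam10* was called higher at 1.08.

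The intracellular partners of syndecans and CD44 had 5 of 19 tested genes risen and 1 fallen, with a median of 0.33. Called were 31.6%, beside 22.8% of all tested genes. *Tiam1*, an activator of the GTPase Rac, lay at 9.54, 11.19 and 11.27 in ischemia, against 8.46, 7.497 and 7.17 in control, and rose by 2.96 (SE 0.49, adjusted p = 0.00288). *Actn1*, the actin crosslinker alpha-actinin-1, rose by 2.04 (SE 0.43, adjusted p = 0.00689), and its other probe set gave 1.65 and was not called. *Prkca*, protein kinase C alpha, a kinase that syndecan-4 binds, fell to 6.57, 6.21 and 6.69 in ischemia, against 7.25, 7.89 and 8.33 in control (adjusted p = 0.00603), which is at least 1.495-fold lower. *Sdcbp*, syntenin, which binds the tails of all syndecans, differed by 0.20 (adjusted p = 0.402) and *Arf6*, a GTPase of syndecan recycling, by 0.33 (adjusted p = 0.0552). The call of *Tiam1* ended without ischemic rat 65 or control rat 68 or 69 (adjusted p up to 0.0149), that of *Actn1* when any 1 rat other than ischemic rat 64 was left out (up to 0.0314), and that of *Prkca* when any 1 rat other than control rat 63 was left out (up to 0.025).

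**Figure D4:**
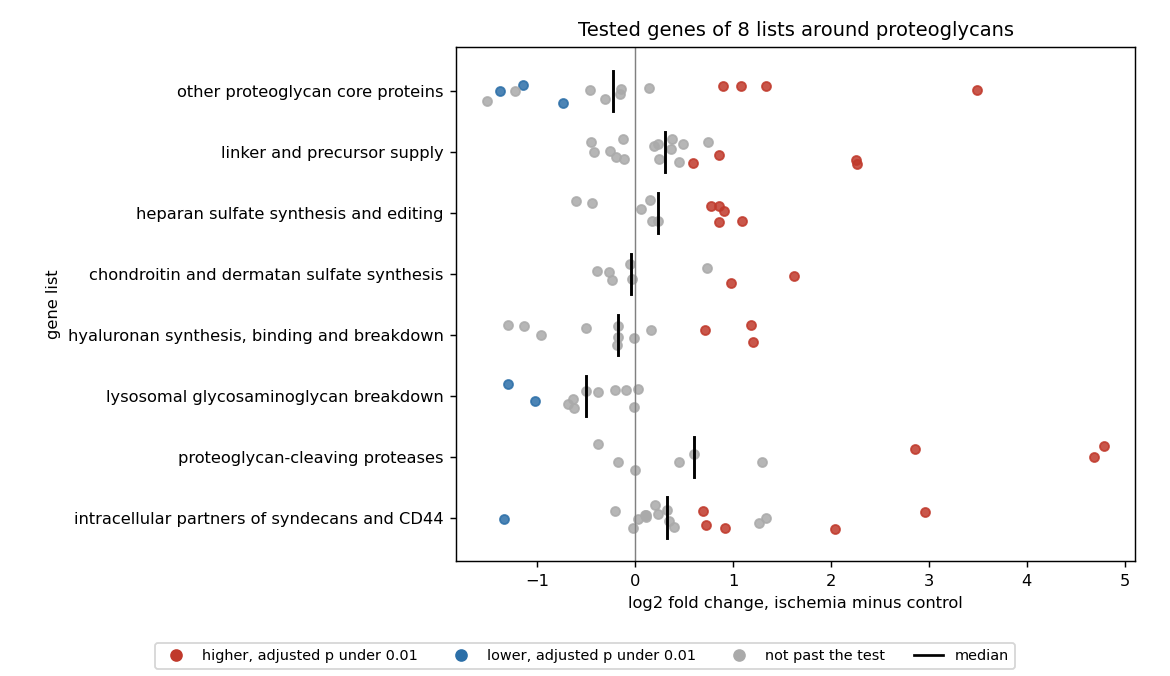
Log2 fold change, ischemia minus control (horizontal axis), of every tested gene of 8 lists, with genes called higher in red, called lower in blue and others in grey. Black lines mark the median of the tested genes of each list, from -0.50 for lysosomal breakdown to 0.60 for the proteases. Over all 14 protease genes on the array, tested or not, the median was 0.037. *Mmp7* and *Mmp9* passed the filter through the ischemic arrays alone. *Papss2*, *Mmp7*, *Mmp9* and *Prkca* are drawn at fitted values although 1 group was below background.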

How the data were processed

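RNA of sorted CD163+ cells was amplified by 3′ in vitro transcription and read on an Affymetrix rat genome array. The deposited log2 values had been made by the authors with RMA, which corrects background and normalizes by quantiles, and were used as deposited. The submitters' processing notes name limma 3.18, R 3.3.1 and RMA. The table held 31099 probe sets, of which 20826 named a single gene. A gene was read from its probe set of highest mean and tested if 3 or more arrays lay above 7.16, which is the 40th percentile of all values. The groups were compared in a linear model with moderated variances (limma 3.58.1, R 4.3.3), two-sided, with Benjamini-Hochberg adjustment over 9928 genes and a threshold of 0.01, as in the study's methods. With 3 rats a group, an exact permutation test cannot go below 0.1, so none was used.

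The 10 genes and all lists were chosen with earlier results of these data known, so the values of these 10 genes are no independent support. From each list the text names up to 3 called genes of largest change and up to 2 uncalled genes of highest mean, and for *Sdc1*, *Vcan* and *Cd44* the 3 genes nearest in pattern. A gene that this rule gives is not reported here. Promoter windows came from RefSeq (GRCr8). The scripts were tested on simulated data. Alternatives covered the filter, probe sets, scaling, moderation, array weights, threshold and leaving out each rat. Arrays carry no depth, and precision is set by the number of rats.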

Additional observations from a re-analysis of the deposited data

How the results depend on the processing

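*Sdc1*, *Sdc3*, *Vcan*, *Cd44* and *Srgn* were called higher under all 15 alternatives. Leaving out 1 rat kept 5 proteoglycan genes higher and gave 0 to 1 lower, the 1 being *Dcn* without control rat 69. For the 8 lists, leaving out 1 rat gave 11 to 27 genes higher and 1 to 8 lower, against 26 and 6 with all rats. The lists had 11 higher and 11 lower after centring on ribosomal protein genes, 11 lower after repeated quantile normalization, 17 lower with array weights and 16 lower at an adjusted p under 0.05. Over 48 genes and 684 values, 568 kept direction and call, 79 lost the call, 15 gained one and 22 changed sign. Of 22 named list genes called, *Tgfbr3*, *Chsy1*, *C1qbp*, *Mmp14* and *Mmp7* kept the call under every alternative run. Besides leaving out rats, ribosomal centring ended the calls of *Cspg4*, *Gnpnat1*, *Glce*, *Extl3*, *Chpf*, *Habp4* and *Actn1*. Testing with no filter ended those of *Gfpt2*, *Extl3*, *Hexa*, *Mmp9*, *Actn1* and *Prkca*, and robust moderation those of *Gfpt2*, *Mmp9* and *Actn1*. Repeated quantile normalization ended those of *Extl3* and *Actn1*, array weights that of *Cspg4*, and the mean of probe sets that of *Actn1*. The sign changes fell on 6 genes, none of them called. Leaving out 1 rat, *Sdc4* ranged between -0.012 (without control rat 63) and 0.57, *Cd74* between -0.19 and 0.31, *Sulf2* between -0.036 and 0.16, *Chst12* between -0.41 and 0.21, *Lyve1* between -0.38 and 0.26 and *Adam17* between -0.16 and 0.10. With ribosomal centring, repeated quantile normalization, array weights and without control rat 63, *Cd74* was at -0.054, -0.16, -0.00151 and -0.19, and *Sulf2* at -0.13, -0.11, -0.0113 and -0.036. *Chst12* was at 0.061 without ischemic rat 64, 0.21 without control rat 68 and 0.029 without 69. *Lyve1* was at 0.00803 with median centring, 0.017 and 0.21 without ischemic rats 65 and 66, and 0.26 and 0.10 without control rats 68 and 69. *Adam17* was at 0.014 with median centring, 0.017 with array weights, 0.10 without ischemic rat 64, and 0.069 and 0.077 without control rats 68 and 69. The causes were not tested. No paired analysis was possible because the groups share no rat number. Dim genes are limited by background: *Bgn* and 40 of 148 list genes were never above it.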
